A study of Mus musculus with 8 samples.

Results

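Drd1+ direct pathway projection neurons are described here as the nuclei that the authors' deposited table annotates as the first of 2 Drd1+ neuron clusters. They numbered 15395 of 55672 annotated nuclei (27.7%) in 18 clusters, the largest cluster of the series. Striatum was taken at 12 weeks of age from 32 mice of 8 inbred strains, 3 of them wild-derived (WSB/EiJ, PWK/PhJ, CAST/EiJ) and 5 classical (NZO/HlLtJ, C57BL/6, NOD/ShiLtJ, A/J, 129S1/SvImJ), and the labels name no treatment. Each of 4 batches pooled 1 mouse of each strain, so each strain had 4 mice and the authors assigned nuclei to mice by genotype. RNA was counted as unique molecular identifiers (UMIs) with the 10x Genomics Multiome assay, which also profiles chromatin accessibility (ATAC) in each nucleus. Batches held 4 male and 4 female samples each, per the design text, and no comparison by sex was made.

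Striatal projection neurons are GABAergic and divide into a pair of classes. Those of the direct pathway carry the D1 dopamine receptor, which raises cyclic AMP, make substance P and dynorphin, project to the substantia nigra and internal pallidum, and are known for promoting movement. Those of the indirect pathway carry the D2 receptor and make enkephalin. Both classes are further arranged into striosomes, patches rich in the mu opioid receptor, and the surrounding matrix, and along gradients from the dorsolateral to the ventral and medial striatum.

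The 15395 nuclei held 104026467 UMIs, with medians of 6505 UMIs and 2673 genes a nucleus. Batches 1 to 4 gave 4421, 4234, 3563 and 3177 of them, and batch 3 was shallowest, with a median of 5014 UMIs. A mouse gave from 283 nuclei (NOD/ShiLtJ, batch 3) to 1198 (A/J, batch 2). The same barcode sequence occurred in more than 1 batch for 137 sequences. Of these nuclei 95.4% were in the index of the deposited ATAC matrix, against 84.7% of all other annotated nuclei. The 129S1/SvImJ mouse of batch 4 stood apart in activity-induced genes, and 3 small sub-clusters stood apart in their markers, both described below with results given without them.

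The label was checked against 5 marker genes, given as CPM, the UMIs of a gene scaled to the same total of UMIs in each set of nuclei. Because the clusters were made from these genes, the levels are descriptions with no test. Drd1, the D1 receptor itself, stood at 219 CPM, against 10.2 in the Drd2+ neurons and 184 in the second Drd1+ cluster. Over the 32 mice its lowest, median and highest levels were 158, 223 and 341 CPM, and its highest level in Drd2+ neurons of any mouse was 20.7, so the 2 classes did not overlap. Tac1, the substance P precursor, was at 310 CPM (lowest 208, median 307, highest 700 over mice) against 50.1 in Drd2+ neurons, and was higher still, 612, in the second Drd1+ cluster. Pdyn, the dynorphin precursor, was at 52.5 CPM against 3.53 in Drd2+ neurons, and the next cluster, mural cells, had 25.1. Isl1, a LIM homeodomain transcription factor of direct pathway neurons, was at 23.6 CPM against 1.07, but cholinergic Chat+ interneurons had 143. Sfxn1, a mitochondrial serine transporter, was at 71.0 CPM against 19.7, with astrocytes at 69.5. All 5 markers were higher in the Drd1+ than in the Drd2+ nuclei of 32 of 32 mice, as the plot of markers by mouse shows. In counts pooled over mice only Drd1, Pdyn and Sfxn1 were highest here among the 18 clusters. Taken by mouse, Drd1 and Pdyn were highest here in 25 mice each, Isl1 in 20, Sfxn1 in 7 and Tac1 in 1. In such counts the small clusters rest on few nuclei a mouse. Chat+ interneurons, with more Isl1 in pooled counts, had 120 nuclei over all mice, so the count for Isl1 does not rank this class above them.

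**Figure D1:**
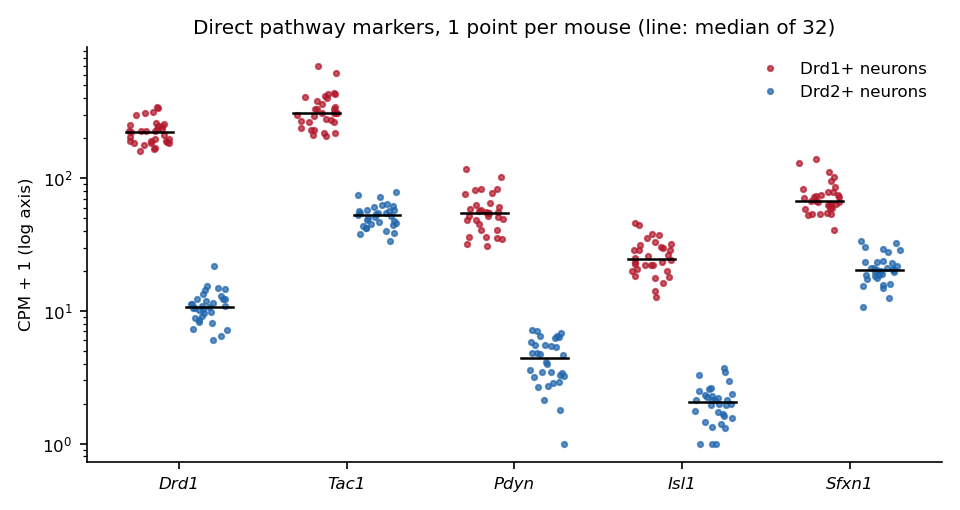
Level of 5 direct pathway markers, as CPM with 1 added on a log axis, in the Drd1+ neurons (red) and Drd2+ neurons (blue) of each of 32 mice, with the median as a line. The Drd1 points of the 2 classes are separate, from 158 CPM upward in Drd1+ neurons and at most 20.7 in Drd2+ neurons.

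The sequences of 250 bases before the start sites of the 3 genes that name the class, the D1 receptor and its 2 peptide precursors, are shown because these genes carry the identity of the neurons. They are from RefSeq (GRCm38.p6), each 5′ to 3′ on the strand of the gene, Drd1 from chr13:54055659-54055908 on the minus strand, Tac1 from chr6:7554811-7555060 on the plus strand and Pdyn from chr2:129699939-129700188 on the minus strand. Capitals mark the core of the cyclic AMP response element, TGACG or its reverse complement CGTCA, a motif known to be bound by CREB.
Drd1: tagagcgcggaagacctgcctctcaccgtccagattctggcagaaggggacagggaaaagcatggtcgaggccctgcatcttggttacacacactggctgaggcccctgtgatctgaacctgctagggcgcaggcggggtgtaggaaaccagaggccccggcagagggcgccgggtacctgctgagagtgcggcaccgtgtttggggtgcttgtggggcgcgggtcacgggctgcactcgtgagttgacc
Tac1: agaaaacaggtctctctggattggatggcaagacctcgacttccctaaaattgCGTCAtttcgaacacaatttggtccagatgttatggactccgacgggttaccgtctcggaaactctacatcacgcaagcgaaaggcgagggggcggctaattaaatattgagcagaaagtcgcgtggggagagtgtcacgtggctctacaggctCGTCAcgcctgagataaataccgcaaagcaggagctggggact
Pdyn: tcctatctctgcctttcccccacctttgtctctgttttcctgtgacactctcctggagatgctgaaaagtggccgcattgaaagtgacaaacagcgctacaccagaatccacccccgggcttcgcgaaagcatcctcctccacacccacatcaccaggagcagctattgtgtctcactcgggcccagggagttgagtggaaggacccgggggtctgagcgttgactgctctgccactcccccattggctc
Tac1 had 2 such cores, and these letters did not occur in the Drd1 and Pdyn windows. Over 27025 promoters of this length 17.9% held such a core on either strand, and 1.62% held the full element TGACGTCA, which contains it. None of these 3 windows overlapped one of the 291715 peaks in the deposited list, which is 1 list over all nuclei, whereas 51.3% of all such windows did. Of the 5 markers, Isl1 and Sfxn1 had windows that overlapped a peak.

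Ebf1 and Lingo2 had larger ratios between the class and Drd2+ neurons than its 5 markers did. Ebf1, a transcription factor needed by direct pathway neurons of the matrix, was at 383 CPM against 7.43, with lowest and highest mice at 251 and 487 against 1.61 and 21.2. Lingo2, a leucine-rich repeat membrane protein, was at 2493 CPM against 55.4. Among genes of at least 20 CPM these had the largest ratios to Drd2+ neurons, 51.5 and 45.0, and with 1 CPM added to both levels Drd1 ranked next. Zfp521, a zinc finger transcription factor, followed with 75.8 against 3.53 CPM, then Adarb2, a brain relative of the RNA-editing enzymes, with 250 CPM here, and Il1rapl2, a synaptic adhesion protein, with 348 against 20.8. Few of these were particular to the class among all clusters: mural cells had more Ebf1 (1225 CPM), the second Drd1+ cluster had more Adarb2 (2626) and Nxph1+ interneurons had more Il1rapl2 (3288).

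Measured against the highest of all 17 other clusters instead, the leading genes were Onecut2, Pdyn and Reln. Onecut2, a homeodomain transcription factor, was at 137 CPM, with mural cells next at 65.3. Reln, which encodes the secreted protein reelin, was at 543 CPM (lowest mouse 356, highest 695), against 269 in mural cells and 253 in Drd2+ neurons. Samd5 was at 217 CPM against 134 in fibroblasts, and Rasgef1b, a Ras exchange factor, at 472 against 361 in a cortical-type Slc17a7+ cluster. Phex, a membrane endopeptidase, was at 77.2 CPM against 53.3 in Drd2+ neurons. Taken by mouse, where small clusters again rest on few nuclei, Rasgef1b was highest in these neurons in 30 of 32 mice and Reln in 29 of 32. In the second Drd1+ cluster Onecut2 was at 5.11 and Reln at 42.1 CPM.

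Markers of other cells were low but not at 0. The 8 genes of the indirect pathway list summed to 159 CPM here (100 to 267 over mice) and to 2451 in Drd2+ neurons, and 0 of the 8 were above their Drd2+ level. Drd2, the D2 receptor, was at 11.9 against 437 CPM, Adora2a, an adenosine receptor of indirect pathway neurons, at 10.4 against 166, and Penk, the enkephalin precursor, at 105 against 1139. Grik3, a kainate receptor subunit, was at 5.54 against 201 CPM. All genes of the glial, vascular, interneuron and excitatory lists were detected, at sums of 0.135% (endothelium and mural) to 6.09% (oligodendrocyte) of those in the cluster where each list was highest. By contrast the 12 genes shared by projection neurons of both pathways, such as Ppp1r1b and Pde10a, summed to 11250 CPM against 12284 in Drd2+ neurons.

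Co-detection of the D1 and D2 receptors was read after thinning each nucleus to 1000 UMIs, since depth differed between clusters. Drd1 had a UMI in 19.7% of 15385 Drd1+ nuclei (95% exact binomial interval 19.1% to 20.3%, counting error only), and in 72.2% before thinning. The same share was 0.811% in Drd2+ neurons and 2.08% in oligodendrocytes, which lack the gene, with median depths of 6505, 5953 and 1640 UMIs. Drd2 had a UMI in 0.799% of thinned Drd1+ nuclei (0.665% to 0.953%), below the 1.46% (1.25% to 1.70%) of oligodendrocytes. Because depth before thinning differed, the oligodendrocyte share is a comparison and no measured floor. The source of these UMIs was not tested. Among nuclei with a Drd1 UMI 0.858% had Drd2, and among those without 0.785% did. Penk was likewise at 8.75%, against 17.6% of oligodendrocytes. Tac1 (25.8% against 9.88%) and Pdyn (5.32% against 0.848%) stood above the oligodendrocyte shares. Pdyn was in 7.18% of nuclei with Tac1 and 4.67% of those without.

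The number of Drd1+ nuclei for each Drd2+ nucleus differed between strains. Over the 32 mice the ratio was lowest at 0.854 (NOD/ShiLtJ, batch 4), had a median of 1.2 and was highest at 1.41 (C57BL/6, batch 1), and 29 of 32 mice were above 1. The 4 NOD/ShiLtJ mice had 1.00, 0.903, 0.893 and 0.854 in batches 1 to 4 (0.913 ± 0.0637, SD, n = 4). The 4 WSB/EiJ mice had 1.04, 1.02, 1.06 and 1.01 (1.03 ± 0.0236). Means of the other 6 strains lay between 1.17 (NZO/HlLtJ) and 1.27 (C57BL/6), and each NOD/ShiLtJ and WSB/EiJ mouse lay below each of their mice, the nearest being an A/J mouse at 1.08. A permutation test of the F statistic of the log2 ratio over the 8 strains, with labels permuted within batch over 32 mice, gave F = 18.7 and p = 4.00e-05, two-sided by the nature of F. With all other annotated neurons as the denominator F fell to 5.03 (permutation p = 5.70e-04). Fewer Drd1+ nuclei and more Drd2+ nuclei cannot be told apart in a ratio, nor can the composition of the tissue from the recovery of nuclei.

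**Figure D2:**
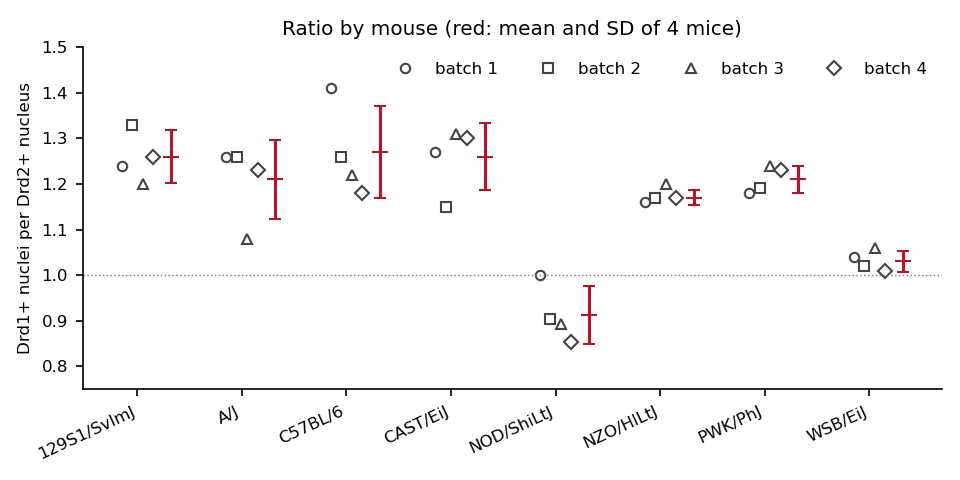
Ratio of Drd1+ to Drd2+ nuclei for each mouse by strain, with batches as symbols and the mean and SD of 4 mice in red. NOD/ShiLtJ mice lie between 0.854 and 1.00 and WSB/EiJ mice between 1.01 and 1.06, below the mice of the other strains.

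Expression in the Drd1+ neurons was compared between strains on counts summed per mouse, in 1 edgeR fit over 32 mice with batch as a block, and levels from here to the sub-clusters are CPM of TMM-scaled libraries. Nuclei of all 8 strains, the wild-derived ones included, were counted on 1 reference genome. Its part in the differences between strains was not tested. All 10 direct pathway genes passed (Benjamini-Hochberg adjusted p under 0.05), where 61.7% of all 13431 genes tested did. Such a share makes passing common, so the sizes are given beside the count. The span between the lowest and the highest strain mean, on the log2 scale, had a median of 1.18 over the 10 genes and of 0.65 over all genes tested, and ran from 0.71 (Drd1) to 2.77 (Eya1). A span also takes in scatter between mice, which is larger at low counts. The immediate early genes had a median span of 1.22 although 1 of 8 passed. Median spans of lists at unlike levels are therefore not compared like for like.

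Drd1 was lowest in PWK/PhJ, with 167, 172, 189 and 174 CPM in batches 1 to 4 (176 ± 9.57, SD, n = 4), and highest in CAST/EiJ, with 263, 262, 333 and 300 (289 ± 33.8). The strain term passed (edgeR F = 21.2, adjusted p = 6.09e-11), and the PWK/PhJ and CAST/EiJ mice did not overlap. Strains named here and below as lowest or highest were picked by these same levels, so a lack of overlap is no test. The lowest and highest strains of Junb did not overlap either, although Junb did not pass (edgeR adjusted p = 0.655). Pdyn was highest in NOD/ShiLtJ, with 79.7, 103, 113 and 80.6 CPM (94.1 ± 16.6), and lowest in WSB/EiJ, with 33.3, 34.2, 59.8 and 30.2 (39.4 ± 13.7). No mouse of another strain reached the lowest NOD/ShiLtJ mouse (edgeR adjusted p = 2.23e-06). Tac1 was also highest in NOD/ShiLtJ (471 ± 141) and lowest in C57BL/6 (273 ± 50.5), with an edgeR adjusted p of 3.58e-07.

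The transcription factors of the class did not share 1 order of strains. Ebf1 ranged from 259 ± 28.2 CPM in PWK/PhJ to 482 ± 11.7 in A/J (edgeR adjusted p = 4.88e-11), and A/J was highest and PWK/PhJ lowest in all 4 batches. Zfp521 was highest in NOD/ShiLtJ (126 ± 20.2) and lowest in CAST/EiJ (57.2 ± 11.7), with an edgeR adjusted p of 1.24e-04. Isl1 was at 33.8 ± 8.15 in NOD/ShiLtJ, the highest strain, and 17.7 ± 6.89 in CAST/EiJ, the lowest, and these mice overlapped although the term passed (edgeR adjusted p = 3.54e-07). Eya1, a transcriptional coactivator with phosphatase activity, had the widest span, with 10.9, 8.66, 7.16 and 3.07 CPM in PWK/PhJ (7.45 ± 3.30) and 49.2, 62.8, 37.2 and 52.9 in A/J (50.5 ± 10.6). All 4 PWK/PhJ mice were below every mouse of the other 7 strains. Sfxn1 was highest in CAST/EiJ (123 ± 20.4), whose 4 mice were above all others, and lowest in WSB/EiJ (53.8 ± 11.4). Slc35d3, a transporter-family protein linked to D1 receptor trafficking, ran from 26.6 ± 3.76 in PWK/PhJ to 62.5 ± 7.76 in NOD/ShiLtJ. Chrm4, the muscarinic receptor that opposes D1 signalling, was near the limit of these counts, 1.37 ± 0.721 in NZO/HlLtJ to 4.09 ± 1.42 CPM in A/J, with overlapping mice (edgeR adjusted p = 0.0311).

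**Figure D3:**
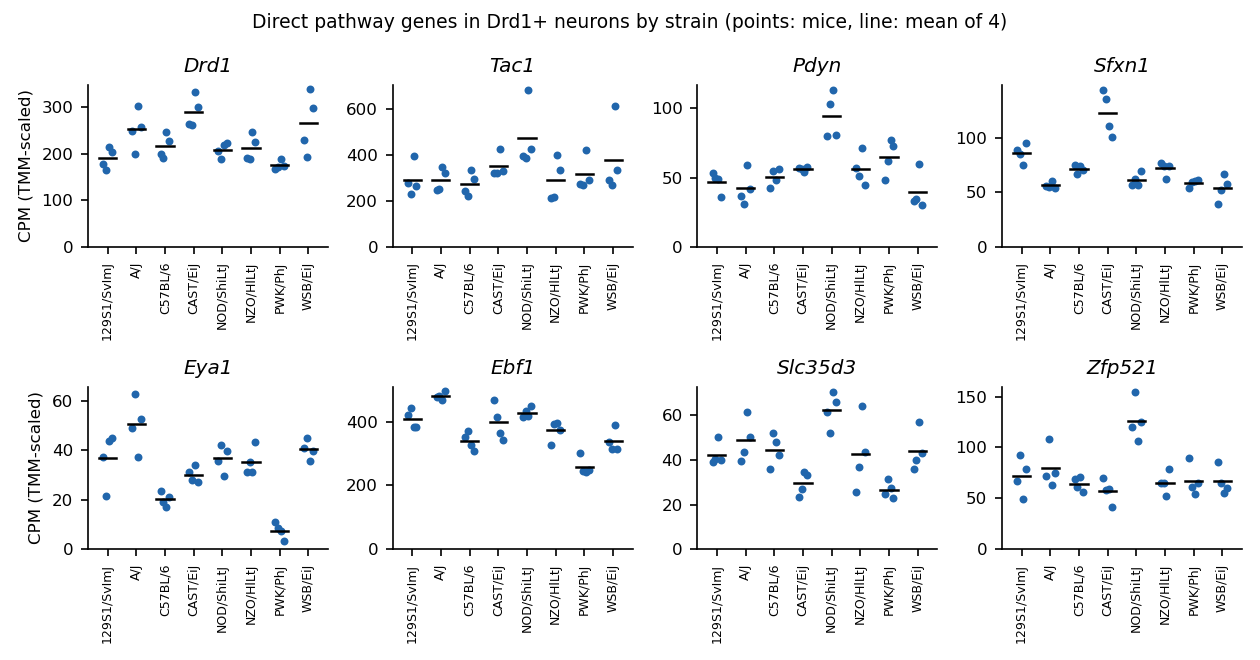
Levels of 8 direct pathway genes in the Drd1+ neurons of each mouse, in CPM of TMM-scaled libraries, by strain, with the mean of 4 mice as a line and the batches from left to right. NOD/ShiLtJ is highest for Pdyn (94.1), CAST/EiJ for Sfxn1 (123) and PWK/PhJ lowest for Eya1 (7.45).

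Batch moved some of the same genes. Tac1 was highest in batch 3 in 8 of 8 strains, with a mean of 452 CPM against 282, 270 and 324 in batches 1, 2 and 4, and Drd1 in 7 of 8 (262 against 210, 195 and 239). Batch 3 was also the shallowest, and Tac1 in its oligodendrocytes was lowest (80.1 CPM, against 110, 119 and 100). Within each of the 4 batches NOD/ShiLtJ was the highest strain for Tac1, Pdyn, Slc35d3 and Zfp521. Without the batch block 8 of the 10 direct pathway genes passed, where 6873 of 13431 genes did. Within the sub-cluster with most nuclei, described below, 8 of 8 that could be tested passed, where 2312 of 7982 genes did.

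Genes of both projection neuron classes were read in the same way. All 12 passed, against 61.7% of all genes, and within sub-cluster 1 alone 6 of 12 did, where 2312 of 7982 genes did. Their median span was 0.44, below the 0.65 of all genes tested, but the genes were not matched for level and the difference was not tested. The widest was Gad1, a GABA-synthesizing enzyme, at 142 ± 18.5 CPM in NOD/ShiLtJ and 65.2 ± 6.17 in CAST/EiJ. Rarb, a retinoic acid receptor, ran from 956 ± 38.5 in PWK/PhJ to 1531 ± 80.9 in A/J (edgeR adjusted p = 1.47e-12). Of the 20 genes from the D1 receptor to cyclic AMP and its targets, 14 passed, 70.0% against 61.7% of all genes tested (median span 0.47). Among them Pde4b, a cyclic AMP phosphodiesterase, ran from 470 ± 38.2 in WSB/EiJ to 948 ± 142 in NZO/HlLtJ, and Gng7, the G protein gamma subunit that pairs with the D1 receptor's G protein, was at 525 ± 28.8 in PWK/PhJ and 363 ± 18.2 in NOD/ShiLtJ. Of 17 other receptors tested 13 passed (76.5%), and without batch 2, 8 of 17 did, where 6636 of 13402 genes did. Htr4, a serotonin receptor that raises cyclic AMP, spanned most, from 9.92 ± 4.13 in NZO/HlLtJ to 71.4 ± 21.9 in NOD/ShiLtJ. Grm5, a metabotropic glutamate receptor at 4241 ± 221 to 4780 ± 520 CPM, spanned 0.17 and did not pass (edgeR adjusted p = 0.0719).

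Among the 100 genes highest here relative to the mean of the other clusters, 93 passed, against 61.7% of all genes tested. These 100 genes were picked for high levels in this cluster, at least 20 CPM, while all genes tested passed only the count filter. The shares are therefore not like for like. The largest F values of the 100 genes were those of Cntnap5c, an adhesion gene of the contactin-associated family (41.3 ± 4.74 CPM in 129S1/SvImJ to 456 ± 54.0 in CAST/EiJ, edgeR adjusted p = 5.95e-18), and of Gm9989, an unnamed locus (2.19 ± 0.292 in WSB/EiJ to 109 ± 27.9 in CAST/EiJ). Kcnq5, a potassium channel subunit of the M current, separated 1 strain from the rest. Its NZO/HlLtJ mice had 8402, 8262, 6775 and 7339 CPM, while the other 7 strains had means from 3684 (A/J) to 3999 (WSB/EiJ), with no overlap. Lpl, lipoprotein lipase, was lowest in C57BL/6 (32.9 ± 5.05) and highest in WSB/EiJ (mean 109). At the other end, Dach1 spanned 0.24 and St8sia3os 0.33 without passing, and Ryr3 and Dcc spanned 0.32 and 0.33 and passed (edgeR adjusted p = 0.0358 and 9.43e-05).

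Striosome and matrix genes were next examined within mice. Kremen1, known as a striosome marker, served to divide the nuclei. Each of the 14634 nuclei with at least 3000 UMIs was thinned to 3000. The 774 nuclei with a Kremen1 UMI were compared with the 13860 without, summed per mouse into 64 libraries with mouse as a block. In pooled clusters the gene was low, at 18.3 CPM in Drd1+ neurons and 23.1 in oligodendrocytes, and its background share was not measured. Kremen1 itself was left out. Nuclei with the gene had more of the 7 striosome genes tested, all 7 called higher (edgeR adjusted p under 0.05), where 2.10% of the 6336 genes tested were called higher and 3.24% lower (5.33% in either direction). Their median log2 fold change was 0.76, against -0.02 over all genes. This list includes genes chosen with earlier results of these data in view. Without batch 2, and without batch 4, 5 of the 7 were called, and 6 were without batch 1, without the mouse block and with DESeq2; with no expression filter 5 of 8 were.

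Sema5b, a semaphorin, stood at 76.0 ± 33.8 CPM with Kremen1 and 27.1 ± 7.41 without (SD over 32 mice), a log2 fold change of 1.46 ± 0.15 (SE, edgeR adjusted p = 4.80e-19). Oprm1, the mu opioid receptor that defines striosomes anatomically, stood at 99.7 ± 54.5 and 49.8 ± 16.8 CPM (0.95 ± 0.13, edgeR adjusted p = 9.05e-12). Khdrbs3, an RNA-binding splicing regulator, was higher by 0.89 ± 0.12, Bach2, a transcription regulator, by 0.76 ± 0.08, and Lypd1 by 0.69 ± 0.18. The peptide genes rose as well, Tac1 by 0.54 ± 0.06 and Pdyn by 0.42 ± 0.13 (edgeR adjusted p = 1.12e-19 and 0.0242). Pdyn did not pass without batch 1, 2 or 4 (0.40, 0.45 and 0.30, edgeR adjusted p = 0.138, 0.0562 and 0.402), without the mouse block (adjusted p = 0.448), with DESeq2 (0.0663) or with no expression filter (0.561). Lypd1 did not pass without batch 2 or 4 (0.61 and 0.54, edgeR adjusted p = 0.0714 and 0.200) or with no expression filter (0.106). Drd1 did not pass (-0.05 ± 0.07, adjusted p = 0.894).

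On the other side 3 of the 7 matrix genes were called lower, against 3.24% of all genes tested. Sgk1, a stress- and hormone-induced kinase, was at 222 ± 89.4 CPM with Kremen1 and 368 ± 65.3 without (-0.70 ± 0.07, edgeR adjusted p = 2.91e-21), followed by Sv2b, a synaptic vesicle protein (-0.54 ± 0.10), and Epha4, an ephrin receptor (-0.41 ± 0.07). Calb1, the classical matrix marker calbindin, was lower without passing (-0.24 ± 0.13, adjusted p = 0.426). Ebf1 (-0.45 ± 0.06) and Zfp521 (-0.55 ± 0.14) were called lower, and Pde4b higher (0.60 ± 0.08). Pde4b was the 1 gene called of the 20 that run from the D1 receptor to cyclic AMP and its targets, a share close to the 5.33% of all genes called.

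Further genes with the largest fold changes were Car10, a carbonic anhydrase relative (1.51 ± 0.16), Tafa2, a secreted neurokine (1.18 ± 0.11), Kcnt2, a sodium-activated potassium channel (1.02 ± 0.15), and Tll1, a metalloprotease (1.02 ± 0.13). Lower by the most were D030068K23Rik (-1.46 ± 0.27), Trpc6, a cation channel (-1.01 ± 0.24), Brinp3 (116 ± 79.0 against 242 ± 84.3 CPM), and Grik4, a kainate receptor subunit (-0.99 ± 0.25). With Oprm1 in place of Kremen1 D030068K23Rik lost its direction, at 0.06. Of the 338 genes called 39.3% were higher, and 58.6% were with DESeq2's size factors, which called 343. Without the mouse block 145 genes were called.

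The second division used Cnr1, the CB1 cannabinoid receptor, known to be graded from high in the dorsolateral to low in the ventral and medial striatum. After the same thinning 6448 nuclei had a Cnr1 UMI and 8186 did not. Of 7509 genes tested 18.4% were called, 9.89% higher and 8.47% lower. Both dorsolateral genes tested were called higher. Gpr155, an integral membrane protein, was at 233 ± 59.5 CPM with Cnr1 and 143 ± 40.7 without (0.73 ± 0.04, edgeR adjusted p = 2.12e-30), and Coch, which encodes cochlin, differed by 0.75 ± 0.06. All 4 ventral and medial genes tested were called lower. Crym, a thyroid hormone binding protein, was at 19.5 ± 7.87 against 48.1 ± 16.8 CPM (-1.26 ± 0.09), Wfs1, the endoplasmic reticulum protein wolframin, differed by -1.03 ± 0.08, Synpr, a synaptic vesicle protein, by -0.54 ± 0.04, and Nnat, neuronatin, by -0.52 ± 0.09. The division also moved striosome genes, 5 of 8 called higher, among them Sema5b (0.58 ± 0.10) and Kremen1 (0.57 ± 0.13), and 1, Pdyn, lower. Without the mouse block, and with Wfs1 in place of Cnr1, 2 striosome genes were called higher. Of 7 matrix genes 2 were called higher and 3 lower, which became 1 and 1 without the block and 0 and 2 on Wfs1.

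The 2 peptide genes parted along this division. Pdyn was at 45.6 ± 18.2 CPM with Cnr1 and 76.7 ± 32.4 without (-0.71 ± 0.07, edgeR adjusted p = 1.41e-15), while Tac1 was at 404 ± 118 and 341 ± 116 (0.26 ± 0.03, adjusted p = 2.44e-13). Eya1 was higher with Cnr1 (0.61 ± 0.09) and Ebf1 lower (-0.17 ± 0.03), and Drd1 did not pass (0.08 ± 0.03, adjusted p = 0.0831). Of the D1 to cyclic AMP list 10 of 20 were called higher and 3 lower, against 9.89% and 8.47% of all genes tested, with sizes of at most 0.34: Rasgrp2, a Rap exchange factor (0.34 ± 0.06), Pde10a, the main striatal phosphodiesterase (0.29 ± 0.02), Ric8b, a chaperone of the G protein alpha subunit (0.27 ± 0.03), and Adcy5, the striatal adenylyl cyclase (0.15 ± 0.02) were among the higher, Pde4b (-0.30 ± 0.04) among the lower. Against the same shares, 9 of the 12 genes of both projection neuron classes were called higher, and Gad2 (-0.26 ± 0.04) and Rarb (-0.08 ± 0.02) lower. Neither list was matched for level to all genes tested, so these shares are not like for like.

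**Figure D4:**
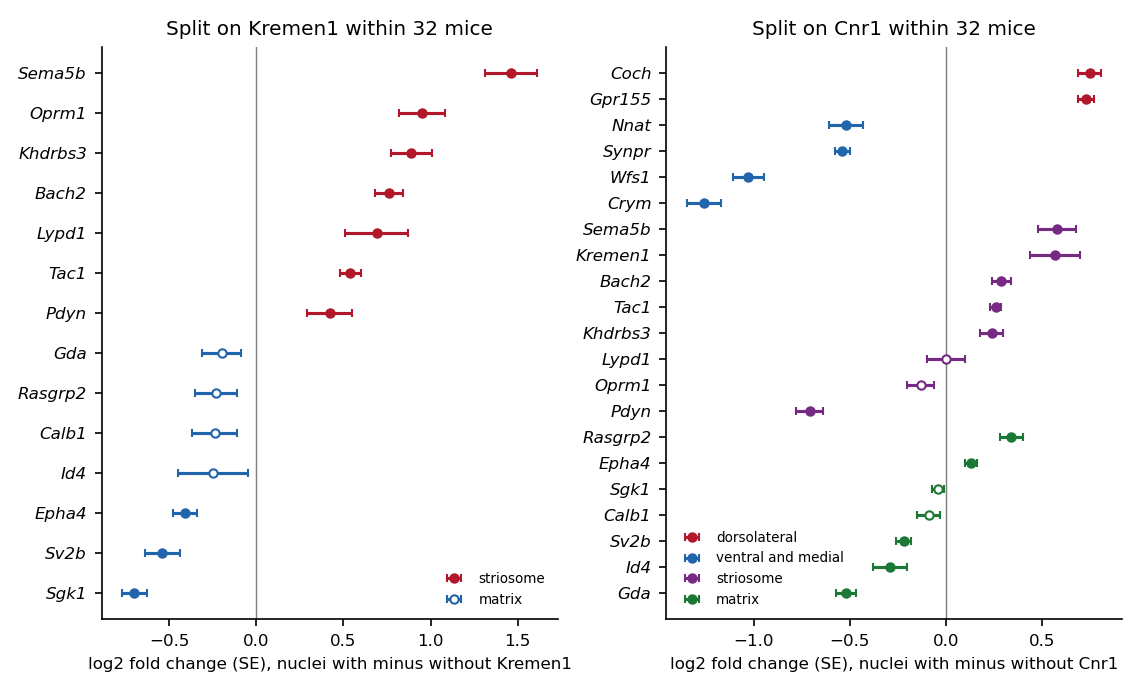
Log2 fold changes with SE between Drd1+ nuclei with and without a Kremen1 UMI (left) or a Cnr1 UMI (right), within 32 mice, for the genes of the striosome, matrix, dorsolateral and ventral and medial lists that were tested. Filled points passed an adjusted p of 0.05, and Sema5b (1.46) and Crym (-1.26) mark the ends.

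The lowest fold change among genes called of at least 10 CPM was that of Pde1a, a calcium-dependent phosphodiesterase, at 28.9 ± 25.4 CPM with Cnr1 and 108 ± 69.8 without (-1.95 ± 0.12, edgeR adjusted p = 1.00e-14). Also among the 10 lowest were Rgs6, a regulator of G protein signalling (-1.49 ± 0.10), Ntn1, the guidance cue netrin (-1.49 ± 0.14), and Prkg1, the cyclic GMP-dependent kinase (-1.12 ± 0.06). Higher with Cnr1 were the transcription factors Tcf7l1 (1.29 ± 0.13) and Meis1 (1.12 ± 0.07), the collagen gene Col19a1 (1.16 ± 0.07) and the adhesion gene Il1rapl2 (1.12 ± 0.08). Of the listed receptors, Htr4 was lower by 1.10 on the log2 scale (-1.10 ± 0.16), and Drd3, the D3 dopamine receptor, by the same size (-1.10 ± 0.13). When nuclei were divided on Wfs1 instead, with those lacking it on the side of Cnr1, 507 genes were called.

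Activity-induced genes differed along this division as well. Of 6 immediate early genes tested 5 were called higher with Cnr1, against 9.89% of all genes tested: Nr4a1, an orphan nuclear receptor (0.49 ± 0.08), Npas4 (0.45 ± 0.09) and Egr1 (0.25 ± 0.08), both transcription factors, Arc, a synaptic plasticity protein (0.34 ± 0.10), and Homer1, a postsynaptic scaffold (0.20 ± 0.02). On the Wfs1 division Nr4a1 was at -0.05 and did not pass. In the Kremen1 division Nr4a1 (0.40 ± 0.16, edgeR adjusted p = 0.166) and Npas4 (0.30 ± 0.14, adjusted p = 0.321) did not pass, and whether the 2 divisions differ was not tested.

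The nuclei were also clustered by themselves, after each gene was centred within mouse, which gave 10 sub-clusters. They were built from the same expression values, so the levels and shares that follow are a description with no test. Counts of list genes higher or lower in at least 3 of 4 mice are given below without the share of all genes that met this rule, which was not computed. Whole lists often moved 1 way: the immediate early genes were lower, 8 of 8, in sub-clusters 3, 5 and 6. Such counts are therefore no measure of enrichment. All mice had nuclei in sub-clusters 1 to 9. Clustering without the genes that differed between strains gave 7 groups that matched these 10 poorly (adjusted Rand index 0.0726, where 1 is the same grouping), thinning to 3000 UMIs gave 9 (0.566), and resolutions of 0.25 and 1 gave 5 (0.347) and 13 (0.797).

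Sub-cluster 1 (2870 nuclei, 18.6%) was striosome-like: 8 of the 9 striosome genes were higher in it than in the other Drd1+ nuclei in at least 3 of 4 mice, and 6 of 7 matrix genes were lower. Sema5b was at 111 CPM against 7.20, Oprm1 at 151 against 24.8, Bach2 at 333 against 82.8 and Kremen1 at 53.2 against 11.8, each in 32 of 32 mice. Tac1 (616 against 253) and Pdyn (106 against 42.7) were higher, and Epha4 (114 against 386), Sgk1 (70.7 against 394), Ebf1 (183 against 420) and Zfp521 (18.9 against 86.3) lower, in 32 of 32 mice. Its leading genes by ratio also included Fbn2, a fibrillin, Chd7, a chromatin remodeller, Asb2, and the loci C130073E24Rik, Gm16083 and Gm45323. Its share ranged from 14.9% of a mouse (A/J, batch 2) to 25.2% (NOD/ShiLtJ, batch 4; exact interval 20.9% to 29.9%), with strain means from 15.4% ± 0.400 in A/J to 22.1% ± 2.88 in NOD/ShiLtJ.

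Sub-clusters 2 and 6 lay at the opposite ends of the Cnr1 gradient. Sub-cluster 2 (2374 nuclei) was led by Pparg, a nuclear receptor, Robo3, Gpr139 and Astn2, and had all 8 ventral and medial genes lower. It had Cnr1 at 618 CPM against 226, Gpr155 at 359 against 154 and Coch at 117 against 63.6. Of the 4 dorsolateral genes these 3 were higher in sub-cluster 2 and 1, Tnnt1, was lower in at least 3 of 4 mice. Tnnt1 was at 1.32 CPM over all Drd1+ nuclei. In sub-cluster 2 Pdyn was at 13.1 against 59.9 CPM and Eya1 at 71.3 against 26.9, both in 32 of 32 mice. Sub-cluster 6 (1839 nuclei) had Wfs1 at 98.3 CPM against 31.1, Crym at 64.7 against 27.4 and Synpr at 205 against 126, with Cnr1 at 57.3 against 320. Sub-cluster 6 had 5 of the 8 ventral and medial genes higher and 0 lower in at least 3 of 4 mice. It was led by 2 phosphodiesterases, Pde1a (371 against 25.2) and Pde11a (27.5 against 2.00), with Dlk1, an imprinted Notch ligand relative (43.6 against 3.89), and the channel gene Trpc5. Over the 32 mice its share ran from 2.82% (PWK/PhJ, batch 1; exact interval 1.59% to 4.62%) to 24.2% (129S1/SvImJ, batch 2; 20.4% to 28.3%), and it varied between mice of 1 strain, the other 129S1/SvImJ mice having 10.2%, 12.6% and 13.3% and the other PWK/PhJ mice 9.82%, 4.90% and 15.7%.

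Striosome genes were lower in most other sub-clusters, for which the comparison includes sub-cluster 1: sub-clusters 2, 3, 4 and 5 had 8, 6, 9 and 7 of the 9 genes lower in at least 3 of 4 mice. Sub-cluster 3 (2326 nuclei) had Stard5 at 29.4 CPM against 9.31, Rreb1, a zinc finger transcription factor, at 73.9 against 33.3, and Crym at 51.4 against 28.6. Of the 8 ventral and medial genes, which include Stard5 and Crym, 3 were higher in it and 3 lower in at least 3 of 4 mice. Sub-cluster 4 (2006 nuclei) had 6 of the 7 matrix genes higher, with Calb1 at 119 against 70.4 and Pdyn at 11.4 against 58.9 CPM, and was led by the loci Gm42705 and Gm6260, Abi3bp and Trpc6. Sub-cluster 5 (1972 nuclei) had Ebf1 at 566 against 354 CPM and was led by Gm38505, Sox2ot, a noncoding RNA over Sox2 (458 against 75.6), and Slit2, a guidance cue (172 against 28.3). Drd1 itself varied little over sub-clusters 1 to 7, from 194 CPM in sub-cluster 6 to 241 in sub-cluster 1.

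**Figure D5:**
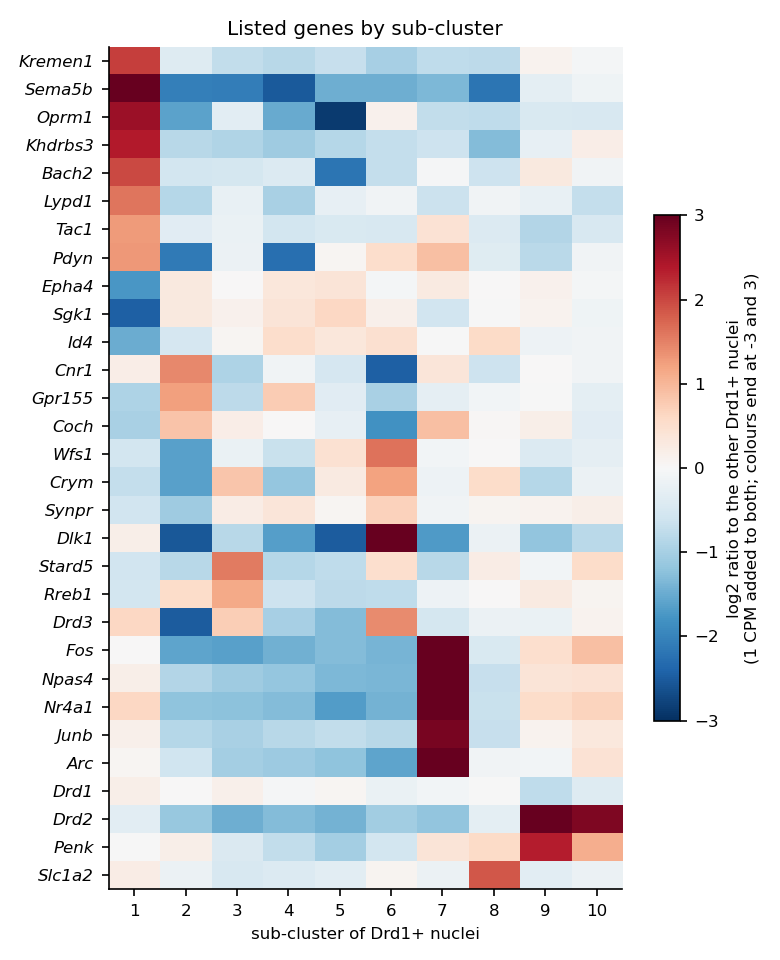
Log2 ratio of the level in each of 10 sub-clusters of Drd1+ nuclei to that in the other Drd1+ nuclei, 1 CPM added to both, for genes of the striosome, matrix, regional, immediate early, pathway and glial lists. Most striosome genes are higher in sub-cluster 1 (8 of the 9 listed), immediate early genes in sub-cluster 7 (8 of the 8 listed), and Drd2 in sub-clusters 9 and 10.

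Sub-cluster 7 (1010 nuclei, 6.56%) was marked by immediate early genes, all 8 of the list higher in at least 3 of 4 mice, over the 30 mice with 10 or more of its nuclei. Npas4 was at 284 CPM against 29.8, Nr4a1 at 225 against 24.9, Arc at 149 against 15.9 and Homer1 at 1337 against 606, and Nr4a3, a relative of Nr4a1, led with 207 CPM, followed by Btg2, Fos and Fosl2. The windows before the start sites of Npas4 (chr19:4989972-4990221, minus strand) and Nr4a1 (chr15:101266596-101266845, plus strand), from RefSeq (GRCm38.p6) and 5′ to 3′, are shown because these genes characterize the sub-cluster, with cores of the cyclic AMP response element in capitals as before.
Npas4: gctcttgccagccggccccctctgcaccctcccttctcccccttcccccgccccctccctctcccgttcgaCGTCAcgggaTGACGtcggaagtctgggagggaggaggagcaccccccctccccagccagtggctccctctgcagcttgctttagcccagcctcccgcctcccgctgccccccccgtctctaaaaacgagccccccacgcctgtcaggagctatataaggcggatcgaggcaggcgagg
Nr4a1: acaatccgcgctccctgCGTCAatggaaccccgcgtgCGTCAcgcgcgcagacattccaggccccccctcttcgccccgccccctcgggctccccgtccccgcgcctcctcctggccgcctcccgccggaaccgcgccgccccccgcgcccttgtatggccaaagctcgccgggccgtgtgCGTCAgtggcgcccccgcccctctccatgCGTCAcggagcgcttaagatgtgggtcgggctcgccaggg
They had 2 and 4 such cores and each overlapped a deposited peak. Of the 6 immediate early genes of the list whose window was read 6 held such a core, where 17.9% of all promoters did, and 4 overlapped a peak, where 51.3% did. Among the other leading genes named above, Nr4a3 held 4 cores and Fosl2 held 0. Btg2 held 1 full element TGACGTCA, whose 2 cores, 1 on each strand, overlap. Each of these 3 windows overlapped a peak. A match is a description of the sequence only.

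The share of sub-cluster 7 ranged from 0.510% (2 of 392 nuclei of the 129S1/SvImJ mouse of batch 4; exact interval 0.0618% to 1.83%) to 11.7% (PWK/PhJ, batch 1; 9.07% to 14.7%). Summed over all Drd1+ nuclei that 129S1/SvImJ mouse had Npas4 at 4.03 CPM, where its strain mates had 61.9, 49.9 and 80.0, and Nr4a1 at 3.02, where they had 61.9, 39.4 and 33.6. The A/J and WSB/EiJ mice of batch 1 were low as well, with Npas4 at 9.28 and 9.60. PWK/PhJ was highest for Npas4, with 98.4, 88.7, 70.3 and 93.5 CPM, and A/J lowest (27.4 ± 20.8). Across strains, where 61.7% of all genes passed, only Homer1 of the 8 immediate early genes did (490 ± 94.7 in WSB/EiJ to 779 ± 103 in C57BL/6, edgeR adjusted p = 7.88e-04), Fos (adjusted p = 0.0598) and Nr4a1 (0.0788) being next. Without the 129S1/SvImJ mouse of batch 4, 4 of the 8 passed, where 8507 of 13728 genes did. Without the filter on low counts 8 of 8 passed, where 9719 of 26987 genes did.

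Sub-clusters 8, 9 and 10 stood apart. Sub-cluster 8 (643 nuclei) had a median mitochondrial share of 3.72%, against 0.748% to 1.29% in the other sub-clusters, and more of astrocyte and oligodendrocyte genes, with Slc1a2, a glial glutamate transporter, at 471 CPM against 128 and Mbp, myelin basic protein, at 1970 against 859. Sub-cluster 9 (251 nuclei) had Drd2 at 168 CPM against 6.87, Penk at 476 against 92.5 and Drd1 at 130 against 222, the same way in 10 of the 10 mice that could be compared. It held 1.63% of the nuclei, 3.15% of the UMIs and 44.3% of the Drd2 UMIs of the Drd1+ neurons. Its median of 12264 UMIs was the highest of the 10, and 25.9% of its nuclei were in the ATAC index. Sub-cluster 10 (104 nuclei, from 26 of 32 mice) was led by St18 and Prr5l, with a median of 9611 UMIs and 20.2% in the ATAC index; with 104 nuclei its level could be compared within 1 mouse only. What these values reflect was not tested. Without these 3 sub-clusters Drd2 had a UMI in 0.598% of the thinned Drd1+ nuclei, 10 of 10 direct pathway genes passed the strain term, where 7976 of 13194 genes did, and the ratio to Drd2+ nuclei gave F = 17.2 (permutation p = 3.00e-05, 32 mice).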

How the data were processed

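RNA of single striatal nuclei was measured with the Multiome assay. The authors' deposited matrices hold raw UMI counts per gene and barcode, with no normalization. Per the submitters' processing notes, bcl2fastq 2.20.0.422, Cell Ranger ARC 2.0.0 and mm10 (GRCm38) were used, so nuclei of all 8 strains were counted on 1 reference. Per the deposited file descriptions, the authors assigned strains with Demuxlet, filtered nuclei, removed doublets with DoubletFinder and annotated clusters; the strain, batch, cluster and removal columns of the deposited table (categories, with no numerical score), the ATAC barcode index and the peak positions were used as given. No further doublet caller was run. The deposited table writes C57BL/6NJ and the labels C57BL/6J, called C57BL/6 here.

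Counts of Drd1+ nuclei were summed per mouse (1710451 UMIs in the smallest library, 9416806 in the largest). Genes were filtered with filterByExpr, scaled by TMM and tested with edgeR 4.0.16 (R 4.3.3, robust quasi-likelihood, Benjamini-Hochberg over all genes tested, threshold 0.05), with batch as a block for strains and mouse as a block for the 2 divisions. The batch number pairs mice because each batch is 1 pool per the labels. The 4 mice of a strain are separate animals per the design text. Nuclei were thinned with fixed seeds to 3000 UMIs for the divisions (761 shallower nuclei left out) and to 1000 for shares. Nuclei were clustered with leidenalg 0.10.2 on 30 principal components of 2000 variable genes (20 neighbours, resolution 0.5), without mitochondrial genes, Xist, Tsix and Y-linked genes. Ratios were tested with 100000 permutations.

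Genes were named from lists, and by ranks: the 12 largest ratios in identity, the largest F and smallest span among 100 identity genes, the 10 largest fold changes of each division of at least 10 CPM, and the leading genes of a sub-cluster of at least 20 CPM; the text gives a selection of these, chosen after their values were seen. The nuclei, lists and rules were chosen with earlier results of these data known. Alternatives were DESeq2 1.42.0, its size factors, no expression filter, no block, other nuclei and each batch left out. The fits were tested on simulated data with 200 genes changed, fewer than the 61.7% called for strains in the data. At 1.5-fold the strain term recovered 41.0%, the Kremen1 division 63.0% and the Cnr1 division 96.5%. At 2-fold they recovered 82.0%, 95.5% and 95.0%. False calls were 2.55% to 6.82% of the genes called.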

Additional observations from a re-analysis of the deposited data

Results flagged for a closer look

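Among 232 groups of 4 mice examined (direct pathway and immediate early genes, sub-cluster shares and the ratio of Drd1+ to Drd2+ nuclei, by strain), 10 held a mouse whose gap to the nearest of the others exceeded the 95% limit of Dixon's ratio, where chance alone gives 11.6. Of the 10, 5 were direct pathway genes in batch 3. Tac1 in batch 3 was at 426 CPM in CAST/EiJ (other mice 320 to 330), at 681 in NOD/ShiLtJ (386 to 425) and at 421 in PWK/PhJ (270 to 292). Pdyn was at 59.8 CPM in the WSB/EiJ mouse of batch 3 (30.2 to 34.2), and Slc35d3 at 50.3 in the 129S1/SvImJ mouse of batch 3 (38.9 to 40.3). Ebf1 was at 302 CPM in the PWK/PhJ mouse of batch 1 (243 to 248). Junb was at 63.4 CPM in the A/J mouse of batch 3 (19.1 to 24.6) and Nr4a1 at 30.8 in the CAST/EiJ mouse of batch 3 (46.6 to 49.8). In the C57BL/6 mouse of batch 3, sub-cluster 3 held 13.7% of nuclei (15.3% to 15.5% in the others) and sub-cluster 10 held 0 (0.647% to 0.768%), where 0 of 468 nuclei allows up to 0.641% by 3 counts and 0.785% by the exact interval, which covers the other mice. Batch 3 had the lowest median of UMIs a nucleus, 5014, and the part of depth in these values was not tested.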

How the results depend on the processing

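The strain term called 8283 genes and stayed within 1.5 times of that under 14 of 15 alternatives; with sub-cluster 1 alone, which has fewer nuclei and 7982 genes to test, it called 2312. Leaving out a batch gave 6636 to 7411 genes for strains, 239 to 272 for the Kremen1 division, 1153 to 1269 for the Cnr1 division and F of 10.7 to 19.8 for the ratio. Without the replicate block 6873 genes were called for strains, 145 (from 338) for the Kremen1 division and 628 (from 1379) for the Cnr1 division, and F for the ratio was 18.7 with permutations over all mice. The ratio passed under all 10 alternatives (permutation p from 1.00e-05, the smallest possible, to 6.10e-04). Without thinning 594 and 2430 genes were called for Kremen1 and Cnr1. With no expression filter the Kremen1 division called 2440 genes, of which 63 were higher, and Grin2a turned to -0.10; the cause was not tested. Divided on Oprm1, 774 genes were called, and D030068K23Rik (0.06), Prr16 (0.00), Clk2 (0.02), Tmem205 (0.19) and Cnr1 (-0.15) turned. Divided on Wfs1, 507 were called, and Pde4b (0.08), Gria3 (-0.03) and Nr4a1 (-0.05) turned. Of the other listed and named genes called in the Cnr1 division, 38 kept their call on Wfs1 and 27 lost it. Without the mouse block 45 of those called in that division kept their call and 28 lost it. A split of 2 or more Kremen1 UMIs left nuclei in too few mice and could not be fitted. At resolution 0.25 there were 5 sub-clusters. Nuclei with few UMIs of a gene set the limit on low genes such as Chrm4.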
